A study of Rattus norvegicus with 3 samples.

Results

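The genes described here make or use glutathione, thioredoxin and metallothionein, or belong to the NRF2 response that controls many of them. The list held 41 genes, chosen by name and function, with earlier results of these data already known. A gene was counted as measured where at least 1 probe set carried its symbol alone, and the brightest such probe set by mean log2 signal stood for it. This gave 40 measured genes, on 48 probe sets, out of 14217 genes measured in all. The exception was Prdx1, whose probe set is annotated to more than 1 gene.

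All 3 arrays hold medullary thick ascending limb (mTAL), the outer medullary segment of the nephron that reabsorbs salt without water, from male Sprague-Dawley rats 7 to 8 weeks old. Every animal had been given furosemide (1 mg), a loop diuretic, and heparin (250 u) 30 min before death, and the tubules came from collagenase and hyaluronidase digestion and a Percoll gradient. No untreated tissue and no other segment was profiled, so the data give levels and not responses. The labels do not say whether the 3 preparations came from separate rats or pools, and the spread between arrays may be technical. Fewer cells of a type and less RNA per cell cannot be told apart in such samples.

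Glutathione is a tripeptide that is made in steps by glutamate-cysteine ligase and glutathione synthetase, spent by peroxidases and transferases, and restored by glutathione reductase. Thioredoxin and the peroxiredoxins form a parallel route for removing peroxides. NRF2, the product of Nfe2l2, is held in the cytoplasm and sent for degradation by KEAP1, and on oxidative stress it enters the nucleus and binds antioxidant response elements near genes of both routes. The mTAL is dense in mitochondria and works at a low oxygen tension, and its mitochondria are a known source of reactive oxygen species.

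Promoter sequence is shown for 7 genes. Of these, 5 had a mean above the detection cutoff described below and differed at least 2-fold between preparations. The others are the metallothioneins, whose 2 genes gave unlike calls. Each line below gives the 250 bases before the gene start in RefSeq (assembly GRCr8), 5′ to 3′ on the strand of the gene. For the first 5 genes the capitals mark matches to the core of the antioxidant response element, TGACNNNGC, on either strand. The windows are chr8:87510226-87510475 (plus strand) for Gclc, chr2:213031885-213032134 (plus strand) for Gclm, chr6:101230034-101230283 (minus strand) for Gpx2, chr10:39529085-39529334 (plus strand) for Gpx3 and chr9:31216533-31216782 (minus strand) for Gsta1.
Gclc: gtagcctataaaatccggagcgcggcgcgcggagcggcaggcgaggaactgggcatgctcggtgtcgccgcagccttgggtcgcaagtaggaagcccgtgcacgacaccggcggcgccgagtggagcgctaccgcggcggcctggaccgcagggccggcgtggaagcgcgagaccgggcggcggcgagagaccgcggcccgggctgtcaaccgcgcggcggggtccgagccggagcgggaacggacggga
Gclm: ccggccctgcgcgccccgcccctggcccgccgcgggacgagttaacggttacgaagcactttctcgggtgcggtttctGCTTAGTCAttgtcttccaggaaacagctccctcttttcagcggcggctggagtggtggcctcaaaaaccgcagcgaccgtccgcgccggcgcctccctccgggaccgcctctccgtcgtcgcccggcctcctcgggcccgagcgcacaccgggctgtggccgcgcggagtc
Gpx2: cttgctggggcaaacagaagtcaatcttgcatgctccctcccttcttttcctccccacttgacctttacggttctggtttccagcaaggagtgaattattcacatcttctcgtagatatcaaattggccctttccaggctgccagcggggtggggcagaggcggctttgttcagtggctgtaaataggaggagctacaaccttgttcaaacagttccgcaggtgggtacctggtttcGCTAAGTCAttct
Gpx3: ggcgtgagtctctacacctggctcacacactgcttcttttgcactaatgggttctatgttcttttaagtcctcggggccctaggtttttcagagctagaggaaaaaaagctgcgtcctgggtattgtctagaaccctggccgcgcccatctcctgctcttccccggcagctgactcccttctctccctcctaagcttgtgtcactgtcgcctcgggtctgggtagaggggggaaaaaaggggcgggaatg
Gsta1: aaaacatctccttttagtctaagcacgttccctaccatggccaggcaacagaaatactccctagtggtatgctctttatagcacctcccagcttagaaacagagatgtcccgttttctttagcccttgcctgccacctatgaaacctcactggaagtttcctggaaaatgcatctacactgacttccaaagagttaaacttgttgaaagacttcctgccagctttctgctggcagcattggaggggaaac

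The metallothionein windows are chr19:10832976-10833225 (minus strand) for Mt1 and chr19:10838709-10838958 (minus strand) for Mt2A. Here the capitals mark metal response elements, searched as TGCACNC or TGCGCNC on both strands.
Mt1: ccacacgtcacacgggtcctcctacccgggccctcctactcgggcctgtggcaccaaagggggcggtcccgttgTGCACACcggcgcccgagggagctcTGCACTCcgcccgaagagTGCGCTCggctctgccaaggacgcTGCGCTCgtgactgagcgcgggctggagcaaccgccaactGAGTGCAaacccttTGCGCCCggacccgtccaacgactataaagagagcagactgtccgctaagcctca
Mt2A: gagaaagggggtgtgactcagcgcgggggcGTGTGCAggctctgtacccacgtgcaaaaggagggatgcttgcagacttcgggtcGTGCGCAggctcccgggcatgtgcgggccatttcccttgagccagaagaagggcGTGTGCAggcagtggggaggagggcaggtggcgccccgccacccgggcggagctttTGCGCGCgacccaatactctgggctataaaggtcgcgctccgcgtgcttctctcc

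Gclm held 1 antioxidant core, from -172 to -164 relative to the gene start, and Gpx2 held 1 from -13 to -5. These letters did not occur in the windows of Gclc, Gpx3 or Gsta1, which says nothing about more distant elements. RefSeq promoter entries were matched to 34 of the 41 genes, with 38 entries among them, and the genes without one were Hmox1, Gsr, Gstt1, Gstt2, Mgst2, Prdx6 and Txnip. Of the 38 entries 8, or 21.1%, held the antioxidant core, beside 10.1% of all 33469 promoter windows of that length. The others were Hmox2, Gstp1, Prdx1, Txnrd1, Mt1 and Mt2A. At least 1 match to the metal response element was found in 11 of the 38 entries, or 28.9%, beside 20.6% of all windows. Mt1 held 6 such matches and Mt2A held 4, and 0.266% of all windows held 4 or more. A match of letters is a description and does not show a bound site.

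**Figure D1:**
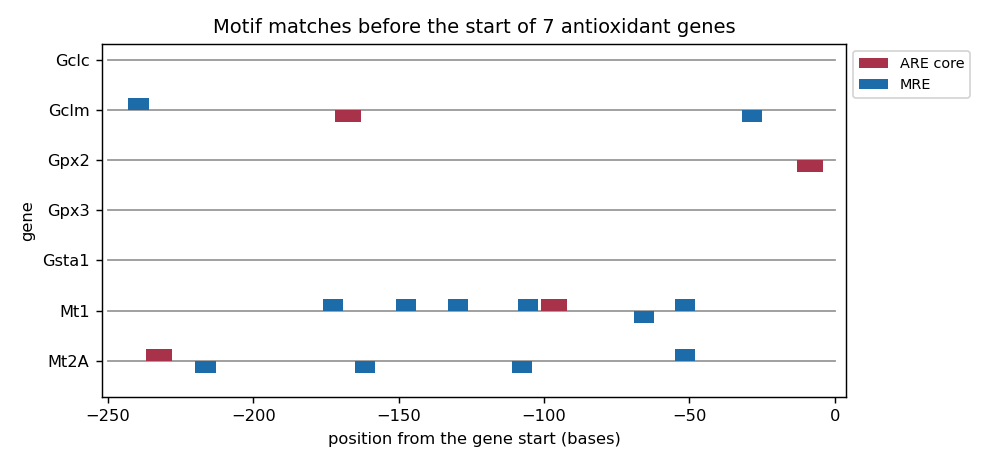
Positions of motif matches in the 250 bases before the start of 7 genes; the x axis is the distance from the gene start in bases, and a block above the line is a match on the strand of the gene and one below it a match on the other strand. Red blocks are antioxidant response element cores and blue blocks metal response elements, of which Mt1 has 6 and Mt2A has 4.

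Most of these genes were detected in the mTAL. By limma, 36 of the 40 measured genes lay above the cutoff at an adjusted p under 0.05, beside 55.1% of all genes. The cutoff, which stands for background, was the 95th percentile of 94 genes known from other tissues, and lay at a signal of 367, 330.1 and 351 on replicates 1, 2 and 3. The median over the 40 genes was 2.36 ± 0.34 log2 units above the array's median gene (SD, n = 3). As a check of the tissue, 14 of 15 measured thick ascending limb markers were detected by the same test. That test also detected 5 of 6 thin limb, 7 of 11 endothelial and 6 of 11 principal cell markers. Counts were lower for podocyte (2 of 6), red blood cell (1 of 3), leukocyte (4 of 18) and intercalated cell (1 of 6) markers. They were also lower for fibroblast and mural (2 of 13), proximal tubule (1 of 23) and distal (0 of 6) markers. The low proximal tubule count does not mean low signal on every array, since these markers varied widely. On replicates 1, 2 and 3, 2, 14 and 18 of the 23 were above the cutoff. The check thus does not show that the preparations were free of other cells. Hybridisation strength is a property of each probe set, so signals of single genes are compared here between arrays, and not with each other. The median level over the 40 genes describes the list and depends on the choice of probe set (2.81 with the mean of all probe sets). Signals are linear, and means are given as mean ± SD over the 3 arrays.

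The 4 genes not called were the glutathione transferase Gstm3, the membrane transferase Mgst2, the sulfiredoxin Srxn1 and the metallothionein Mt1. Gstm3 and Mgst2 were below the cutoff on all 3 arrays. Srxn1 was above it on 2 arrays, and Mt1 was above it on all 3 with an adjusted p of 0.0687. A gene that was not called may still be expressed. The probe sets of Glrx, Gpx4, Gstt2 and Srxn1 that did not stand for the gene were below the cutoff on all 3 arrays. A stricter cutoff, the 99th percentile of that background set, left 26 of the 40 called, against 28.8% of all genes, and at the 90th percentile 38 were, against 62.6%. The calls lost at the stricter cutoff were those of Keap1, Hmox1, Gclc, Gclm, Glrx, Gpx2, Gpx3, Gstt1, Gstt2 and Txnrd2, and those gained at the looser cutoff Srxn1 and Mt1.

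**Figure D2:**
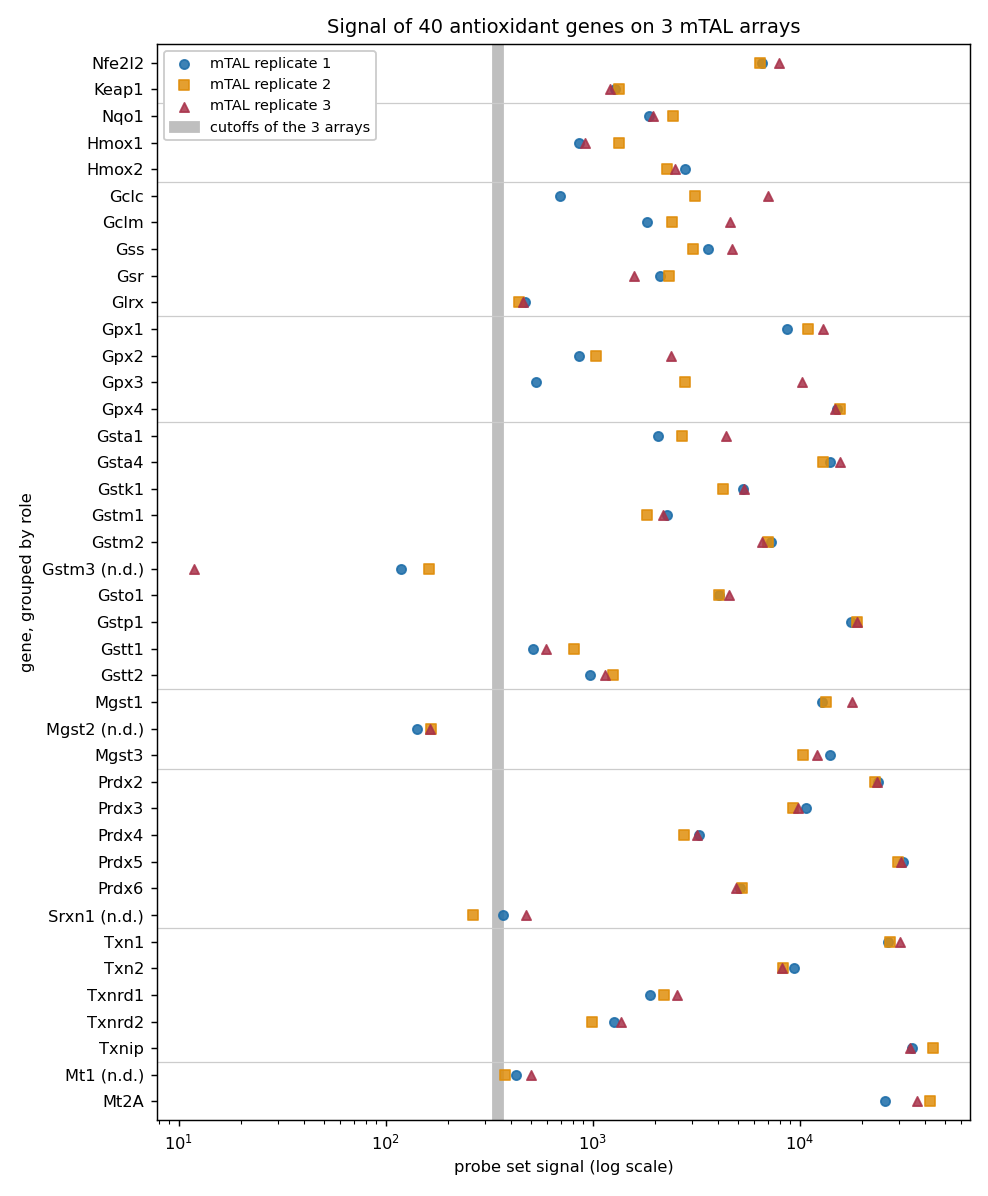
Signal of each of the 40 measured genes on the 3 arrays, on a log scale, with 1 symbol per replicate, genes grouped by role and the range of the 3 array cutoffs as a grey band. Genes marked n.d. were not detected; Gclc and Gpx3 spread most widely among detected genes, and Prdx2 has 3 nearly overlapping symbols.

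Both control genes of the response were detected and differed less than 2-fold between arrays. Nfe2l2 had signals of 6589, 6380.4 and 7945 on replicates 1, 2 and 3, which is 4.31 ± 0.12 (SE) log2 units above the cutoff (limma adjusted p = 8.28e-05). Keap1, the adaptor that presents NRF2 to a ubiquitin ligase, had signals of 1279, 1329 and 1203, 1.86 ± 0.11 (SE) above it (limma adjusted p = 0.000293). The highest array stood 1.25-fold above the lowest for Nfe2l2 and 1.10-fold for Keap1. A second Keap1 probe set, with signals of 402, 306 and 228, was above the cutoff on replicate 1 alone.

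Nqo1 and Hmox1, enzymes often read as markers of NRF2 activity, were detected as well, while Srxn1 and Slc7a11, described below, were not. Nqo1, a quinone reductase, had signals of 1871, 2423 and 1955 (limma adjusted p = 0.000323). Hmox1, the inducible heme oxygenase, gave 854, 1337 and 920.1, with replicate 2 highest and a 1.56-fold range (limma adjusted p = 0.00338). Its constitutive relative Hmox2 gave 2775, 2279.8 and 2502, with replicate 1 highest. Without an untreated control these levels do not show whether the response was active.

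The steps of glutathione synthesis differed in how they varied over the arrays. Gclc, the catalytic subunit of the rate-limiting glutamate-cysteine ligase, had signals of 691, 3129 and 6977 on replicates 1, 2 and 3. Replicate 3 was 10.1-fold above replicate 1, with replicate 2 between them. The second Gclc probe set gave 365, 1463 and 3012, in the same order and 8.26-fold apart. On replicate 1 it lay just below the cutoff of 367, so the size of that difference rests on a value near background. Gclm, the modifier subunit of the same enzyme, gave 1834, 2402 and 4596, again lowest on replicate 1 and highest on replicate 3, 2.51-fold apart. Gss, which adds glycine to complete glutathione, gave 3581, 3028 and 4670.4, a 1.54-fold range in which replicate 2 was lowest.

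Recycling genes did not share that order on the probe sets that stood for them. Gsr, the reductase that restores glutathione, had signals of 2116, 2341 and 1576, with replicate 3 lowest. Glrx, a glutaredoxin that removes glutathione from proteins, had signals of 469, 441 and 458, all close above the cutoff. A second Glrx probe set gave 183, 202 and 277, below the cutoff on all 3 arrays but rising from replicate 1 to replicate 3. Each of these 5 genes was detected, with limma adjusted p-values from 0.000177 for Gss to 0.0271 for Gclc. The calls of Gclc and Glrx were lost without replicate 2 and without replicate 3, and that of Glrx also without replicate 1, with the skeletal muscle myosin Myh1 in the background set and with the mean of all probe sets.

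Among the glutathione peroxidases, selenium enzymes that reduce peroxides, all 4 measured genes were detected and 2 differed strongly between preparations. Gpx3, the secreted form found in plasma, gave 533, 2783 and 10262, so that replicate 3 was 19.2-fold above replicate 1. Its detection was at the edge of the threshold (limma adjusted p = 0.0481), and was lost without replicate 2, without replicate 3 and when Myh1 joined the other-tissue genes. Gpx2, known best from the gut epithelium, gave 852, 1039 and 2386, 2.8-fold higher on replicate 3 than on replicate 1. The common cytosolic form Gpx1 followed the same order with a smaller range, at 8702, 10969 and 12924 or 1.49-fold. Gpx4, which reduces lipid peroxides in membranes, was nearly level at 15148, 15668 and 14826.

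Of the 10 soluble glutathione transferases, which join glutathione to reactive compounds, 9 were detected and 8 of those differed less than 2-fold between arrays. The exception was Gsta1, an alpha class enzyme, with signals of 2063, 2704 and 4387 and replicate 3 2.13-fold above replicate 1. Gsta4, which acts on the lipid peroxidation product hydroxynonenal, gave 13897, 12971 and 15532. Gstp1, the pi class enzyme, gave 17642, 18829 and 18963, a 1.07-fold range. Gstm2 and Gstm1, of the mu class, had mean signals of 6956 ± 362 and 2097 ± 239, while Gstm3 gave 118, 161 and 11.8, below the cutoff throughout. Genes of the alpha and mu classes are close in sequence, and whether their probe sets also take up related transcripts was not tested.

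Of the remaining transferases, Mgst2 was the one not detected, and Gstt1 had the widest range at 1.59-fold. Gsto1, an omega class enzyme with thiol transferase activity, had a mean of 4222 ± 273, and Gstk1, found in mitochondria and peroxisomes, one of 4954 ± 631. The theta class genes Gstt1 and Gstt2 had means of 639 ± 155 and 1121 ± 146, and the call of Gstt1 (limma adjusted p = 0.019) was lost without replicate 3. Among the microsomal transferases, Mgst1 gave 12711, 13361 and 17819.6, highest on replicate 3, and Mgst3 gave 13992, 10389 and 12106, lowest on replicate 2. Mgst2, with signals of 141, 165 and 164, averaged -1.16 log2 units relative to the cutoff and lay below it on each array.

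Peroxiredoxins, the thiol peroxidases that work with thioredoxin, were detected for all 5 measured members and hardly varied. Prdx2 had signals of 23954, 23108 and 23676, the narrowest range of the list at 1.04-fold. Prdx5, which is found in mitochondria and peroxisomes, gave 31536, 29887 and 30924, and the mitochondrial Prdx3 gave 10668, 9222 and 9784. Prdx4, of the endoplasmic reticulum, had a mean of 3065 ± 264 and Prdx6, which uses glutathione in place of thioredoxin, one of 5104 ± 166. No peroxiredoxin differed by more than 1.18-fold between arrays, and limma adjusted p-values were at most 8.83e-05. The repair enzyme Srxn1, which restores overoxidised peroxiredoxins, gave 369, 264 and 475 and was not detected (limma adjusted p = 0.698).

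All 5 measured thioredoxin genes were detected. Cytosolic Txn1 had signals of 26591, 27130.3 and 30353, and mitochondrial Txn2 had 9329, 8288 and 8222. Txnip, which binds and inhibits thioredoxin, gave 34872, 44160.1 and 34067, highest on replicate 2. The cytosolic reductase Txnrd1 gave 1876, 2196 and 2542, in the order of replicates 1, 2 and 3, while its second probe set gave 990, 1545 and 824 and was highest on replicate 2, so the probe sets of this gene disagreed on the order. Mitochondrial Txnrd2 had a mean of 1203 ± 194, with replicate 2 lowest (limma adjusted p = 0.000489).

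The metallothioneins, small cysteine-rich proteins that bind zinc and other metals, gave unlike calls. Mt2A had signals of 25842, 42537 and 36648, 6.62 ± 0.22 (SE) log2 units above the cutoff (limma adjusted p = 9.78e-05), with replicate 1 lowest and a 1.65-fold range. Mt1 had signals of 423, 376 and 499.7, 0.30 ± 0.12 (SE) above it, and missed the threshold. Mt1 was called with the cutoff at the 90th percentile, at the signal of the brightest TrpnX probe set (a bacterial control transcript), with the mean of all probe sets, with the filter on the median probe set and by the rule that all 3 arrays lie above the cutoff. A further probe set lists Mt1 among several genes and was not used, and the signals of the 2 metallothionein probe sets cannot be set against each other. Both promoters shown above carry several matches to the metal response element.

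The preparations differed at least 2-fold in 5 of the 38 genes whose mean lay above the mean cutoff, beside 5.68% of all such genes. These were Gclc, Gclm, Gpx2, Gpx3 and Gsta1, and in each of the 5 replicate 1 was lowest, replicate 2 between and replicate 3 highest. Of all 8633 genes with a mean above the mean cutoff, 2.54% had that order with a 2-fold range. Replicate 3 was the highest array for 18 of the 38, or 47.4%, beside 33.9% of all such genes. None of the 38 was at least 2-fold higher on replicate 1 than on replicate 3, beside 0.243% of all such genes. Gstm3, which lies outside the 38, was 10.0-fold higher on replicate 1 than on replicate 3, with all 3 signals below the cutoff. Each array is a single preparation, so these differences have no replicate test. Centred on its median gene, Gsta1 fell short of 2-fold, and without replicate 1 the genes past 2-fold were Gclc, Gpx2 and Gpx3, while without replicate 3 they were Gclc and Gpx3.

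**Figure D3:**
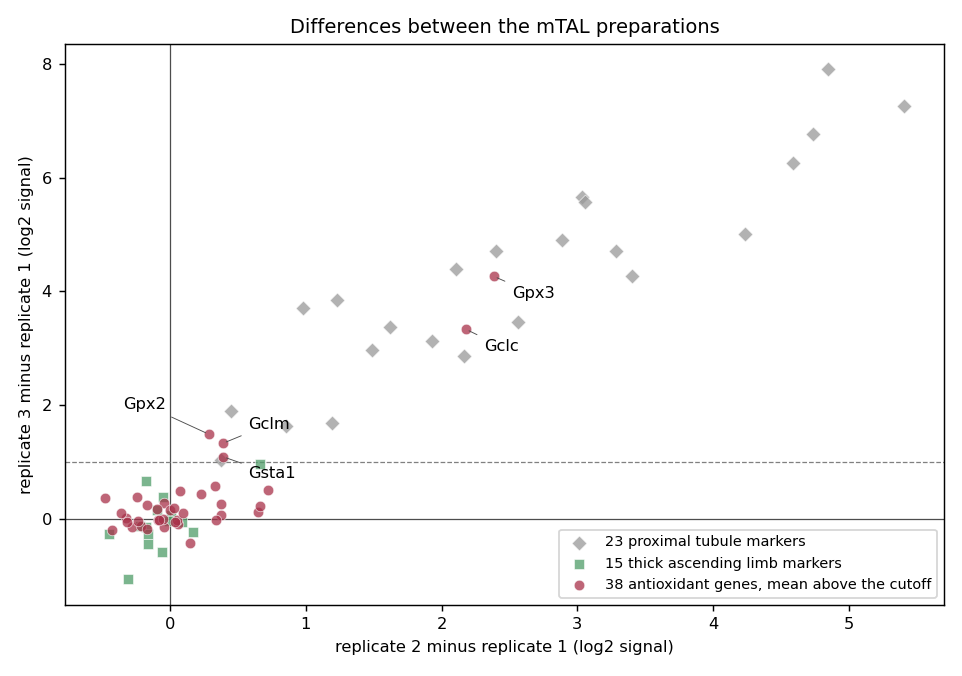
Log2 signal of replicate 2 minus replicate 1 (x axis) against replicate 3 minus replicate 1 (y axis), with 1 point per gene for 38 antioxidant genes, 23 proximal tubule markers and 15 thick ascending limb markers; the dashed line marks a 2-fold difference. The axes share replicate 1, so points lean along the diagonal by construction; Gpx3 and Gclc lie among the proximal tubule markers and most other antioxidant genes near 0.

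Summed marker signals of several other cell types, but not of all, followed the same order. All 23 measured proximal tubule markers were higher on replicate 3 than on replicate 1, with a median difference of 4.27 log2 units, and their summed signal was 6522, 28468 and 93295 on replicates 1, 2 and 3. On these arrays 2, 14 and 18 of the 23 were above the cutoff, and none was listed at 0. The largest differences were those of the urate transporter Slc22a12 (6.77, 195 and 1629.7), the androgen-regulated Kap (169, 7164 and 26093) and the amino acid transporter Slc7a13 (124, 3301 and 13568). Summed signals of 11 principal cell markers also followed that order, at 13726, 18571 and 27469.9. So did those of intercalated cell (1154, 2801 and 3119) and of fibroblast and mural markers (3111, 6744 and 7175). Of the latter, 2, 9 and 8 were above the cutoff on replicates 1, 2 and 3. Leukocyte sums (26508, 30895 and 32645) did as well, with 4 of 18 markers detected. The median leukocyte level relative to the array's median gene was -2.77, -2.50 and -3.17, lowest on replicate 3. Red blood cell sums (1669, 1734 and 6408) followed the order over 3 genes, of which 1 was higher on replicate 2 than on replicate 1. Thin limb markers summed to 31370.2, 77076 and 53978 and endothelial markers to 15998, 29056 and 24498, both highest on replicate 2. Sums of podocyte markers (2422, 3433 and 2826) and of the distal convoluted and connecting tubule (647, 1076 and 1052) were also highest on replicate 2. Of the 6 measured distal markers 0 were detected. Their median log2 difference from replicate 1 was 0.31 on replicate 2 and 0.84 on replicate 3, so they give no clear order. The sum over the 15 thick ascending limb markers was 272164, 265079 and 248724. Over Gclc, Gclm, Gpx2, Gpx3 and Gsta1 the difference of replicate 3 from replicate 1 ran from 1.09 to 4.27 log2 units, and the part of other cell types in it was not tested. The 3′ to 5′ log2 ratio of the Actb control (larger where RNA is degraded) came to 1.48, 1.18 and 1.95, highest on replicate 3 as well, and its part was not tested either.

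**Figure D4:**
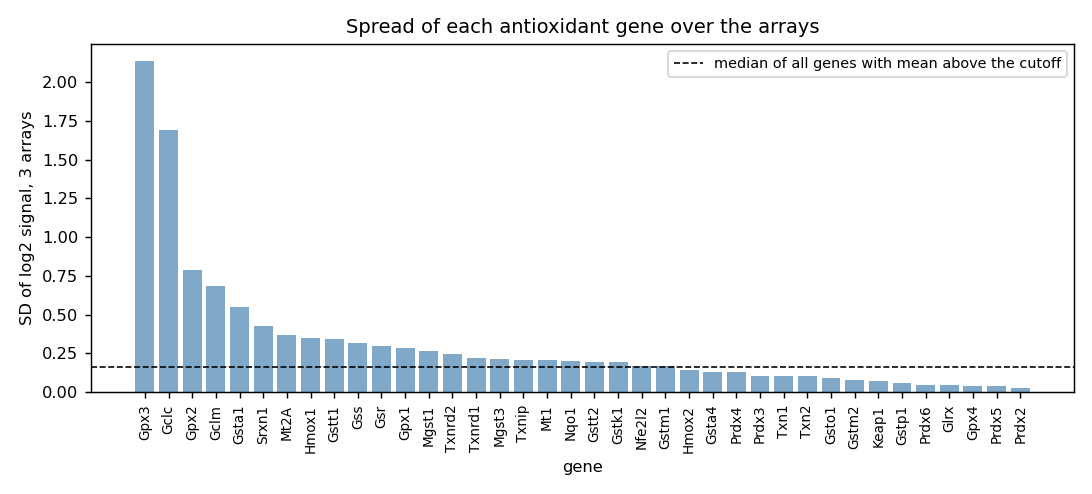
SD of the log2 signal over the 3 arrays for each of the 38 genes with a mean above the mean cutoff, in falling order, with the median of all genes above that cutoff as a dashed line. The bars of Gpx3 and Gclc reach 2.14 and 1.69, and the median line lies at 0.16.

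The other 33 genes differed less than 2-fold, with ranges from 1.04-fold for Prdx2 to 1.80-fold for Srxn1. The SD of the log2 signal had a median of 0.20 over the 38 genes and 0.16 over all 8633 genes with a mean above the mean cutoff, and 23 of the 38 lay above the latter. By role, the median SD was 0.08 for the peroxiredoxins with Srxn1, 0.17 for the soluble transferases, 0.32 for glutathione synthesis and recycling and 0.54 for the peroxidases.

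Related genes of the same pathways were taken from lists chosen by role, and from each list up to 3 detected genes are named by their probe set signal, which gives no order of expression between genes. Of 11 measured NRF2 regulators 8 were detected, among them Sqstm1 (11627 ± 1656), an autophagy receptor that binds KEAP1, Cul3 (8448 ± 412), the scaffold of its ubiquitin ligase, and Rbx1 (6644 ± 616), the ring subunit. Of 22 other NRF2 target genes 15 were detected, among them the aldehyde dehydrogenase Aldh1a1 (31490.1 ± 1019), the superoxide dismutase Sod1 (17581 ± 921) and the aldehyde reductase Akr1a1 (16595 ± 576). The cystine transporter Slc7a11, which supplies glutathione synthesis, was below the cutoff on all arrays, with signals of 115, 71.4 and 102.

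Glutathione genes beyond the main list were detected in 27 of 35 cases, among them Slc25a39 (14418 ± 1019), the mitochondrial glutathione carrier, Glrx5 (13892 ± 1307), which serves iron-sulfur cluster assembly, and the transferase Gstt3 (8579 ± 1827). Of 22 further thioredoxin and methionine sulfoxide genes 20 were detected, among them Idh2 (53334 ± 651), Nnt (29906 ± 898) and the disulfide isomerase P4hb (23678 ± 1935). Idh2 and Nnt supply mitochondrial NADPH, which both reductase systems need. Of 18 selenoprotein and selenium handling genes 15 were detected, among them Selenop (34588 ± 1648), the plasma selenium carrier, Selenot (10622 ± 491) and Selenof (9373 ± 777), both of the endoplasmic reticulum. Of 7 metal and metallothionein genes 2 were detected, the metal-sensing factor Mtf1 (1523 ± 60.4) and the zinc importer Slc39a14 (819 ± 47.3), and Mt3 and Mt4 were below the cutoff on every array. The shares of these lists stand beside 55.1% of all genes.

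**Figure D5:**
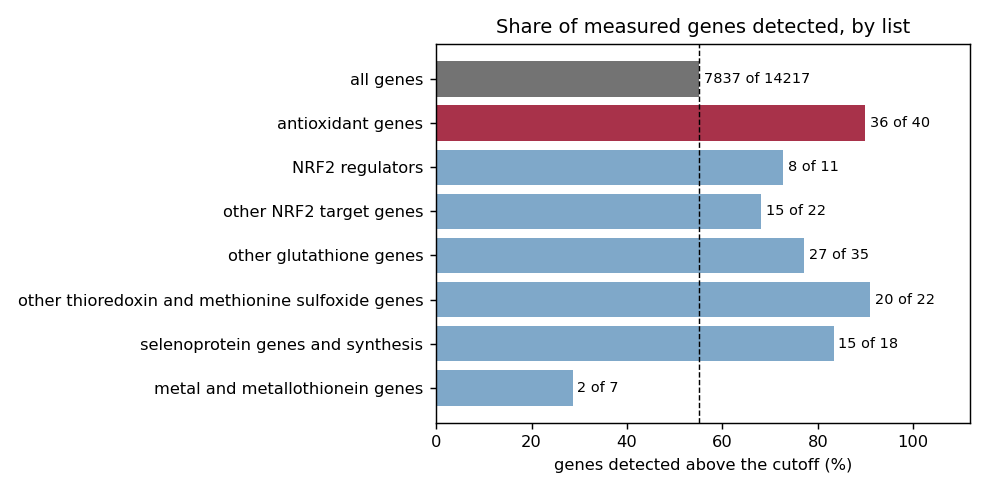
Percent of measured genes detected above the cutoff for the antioxidant genes, 6 lists of related genes and all genes, with counts beside the bars and the share of all genes as a dashed line. The antioxidant genes stand at 36 of 40 and the metal and metallothionein list at 2 of 7.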

How the data were processed

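Per the labels' protocols, biotin-labelled cRNA of 3 mTAL preparations went onto Affymetrix arrays. The authors deposited 1 linear intensity per probe set and array. How probe signals were summarised and normalized is not given in the sources used here, and the number of arrays limits the precision. After the lowest and highest 2% were left out, each array had the same mean signal, so log2 was taken with no pseudocount and no further scaling, since no value was 0 or below.

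The arrays carried 31099 probe sets, 57 of them controls. By the platform's annotation 20826 probe sets named 1 gene, 436 named several and 9780 named none. Gene identifiers of 20758 were found in RefSeq (GRCr8), which changed 0 symbols.

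Detection was tested with limma 3.58.1 in R 4.3.3 (lmFit and eBayes, one-sided, log2 signal minus each array's cutoff above 0), with Benjamini-Hochberg adjustment over 14217 genes at 0.05. On each array the cutoff lay at the 95th percentile of other-tissue genes (105 listed, 94 measured), and its own error is not in the p-values. Myh1 was left out of that list after its signal on these arrays was known; whether its probe set is annotated correctly was not tested, and Cela1, Krt10 and Mbp, which were detected, were kept. A 2-fold array difference was counted among genes whose mean log2 signal lay above the mean cutoff. Every measured gene of the list is named, from related lists up to 3 detected genes each with the highest mean log2 signal, and of proximal tubule markers the 3 with the largest difference between replicates 3 and 1. Slc7a11, Mt3, Mt4 and the genes under the other observations were picked with their values in view. The genes, lists and rules were chosen with earlier results of these data known. Promoter windows were searched for the motifs on both strands, and the 7 shown were picked after the values were seen. Alternatives covered the cutoff, scaling, pseudocount, filter, choice of probe set, fold and left-out arrays. The detection test was tested on simulated data.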

Additional observations from a re-analysis of the deposited data

How the results depend on the processing

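The count of 36 detected antioxidant genes stayed within 1.5 times under the 14 alternatives, from 26 (28.8% of all genes) to 39 (78.3%), and between 32 and 35 when 1 array was left out (52.4% to 54.6%). It was 34 (53.6%) with Myh1 among the other-tissue genes, where Glrx and Gpx3 were lost. Relative to the 99th percentile cutoff Hmox1 lay at -0.29, Glrx at -1.44, Gstt1 at -0.98, Gstt2 at -0.15 and Txnrd2 at -0.056 log2 units, and relative to the highest TrpnX control Mgst2 lay at 1.63. At the 99th percentile 5 NRF2 regulators, 9 selenoprotein genes and 0 metal genes were detected, the last with 2 at the main cutoff by limma, 0 with the mean of all probe sets and 4 at TrpnX. Beside both counts of 0, 1 of the 7 metal genes had an unadjusted limma p under 0.05. Genes differing between arrays numbered 10 of 38 at 1.5-fold in place of 2-fold, where 17.4% of all genes did, and from 2 to 5 when 1 array was left out, beside 2.41% to 3.44%. The median level was 2.81 with the mean of all probe sets. No paired analysis was possible because the 3 arrays form 1 group. The low signals near the cutoff of Glrx, Mt1 and Srxn1 limit those calls.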

Other observations

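Several related genes that were not on the main list also had their lowest signal on replicate 1 and their highest on replicate 3. They were picked after their values were seen, as those of the related lists with a mean above the mean cutoff and the largest differences. Ggt1, the gamma-glutamyltransferase that starts the breakdown of extracellular glutathione, had signals of 1149.7, 2247 and 6005, and Anpep, an aminopeptidase of the brush border, had 223, 1128 and 2689.7. Ggct, which acts on gamma-glutamyl products inside the cell, gave 2376, 3256 and 4833. Among NRF2 targets, Akr7a3, an aflatoxin aldehyde reductase, gave 114, 605 and 3198, Osgin1 gave 46.6, 775 and 1388 and the malic enzyme Me1 gave 459.9, 744 and 929. The small MAF partner of NRF2, Maff, gave 359.9, 627 and 1004. Of these 7 genes Ggt1, Ggct and Me1 were detected. Akr7a3, Osgin1, Anpep and Maff were below the cutoff of 367 on replicate 1. They passed the filter on the mean only through the other arrays, where their signals were higher. Counts by list were taken over genes with a mean above the mean cutoff. The order with a 2-fold range held in 3 of 28 other glutathione genes and 3 of 17 other NRF2 targets. It held in 1 of 9 NRF2 regulators, 0 of 20 thioredoxin and methionine sulfoxide genes and 0 of 17 selenoprotein genes. In the metal and metallothionein list the count was 0 of 3. Over all genes with a mean above the mean cutoff the share was 2.54%, under the same filter. The genes counted in these lists are the 7 named above, Akr7a3, Osgin1, Anpep and Maff among them. For those that passed the filter only through the other arrays, a low replicate 1 is not separate from the filter. The counts are thus descriptions and not tests. The summed signal of proximal tubule markers followed the same order, and its part in these values was not tested.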
